A study of Mus musculus with 4 samples.

Results

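The epidermal growth factor (EGF) receptor family and its ligands were read in RNA from mouse mammary cells cultured with baicalin, a flavonoid of Scutellaria roots, or with DMSO, its vehicle control. The 10 genes described were taken by symbol from a table of 54446 genes. They comprise 7 ligands of the EGF receptor (Areg, Ereg, Hbegf, Tgfa, Btc, Epgn and Egf) and 3 receptors (Egfr, Erbb2 and Erbb3). Each condition had 1 library: cells labelled basal with DMSO, cells labelled basal with 100 μM baicalin, cells labelled luminal with DMSO and cells labelled luminal with 100 μM baicalin. All cells came from wild type C57BL/6 mammary glands, were sorted by flow cytometry and were grown in three-dimensional culture in growth factor-reduced Matrigel. According to the study's methods, the culture medium contained EGF in every condition, so that the receptor was supplied with an added ligand throughout. The number of animals behind a library and the time of harvest for sequencing are not given in the sources used here. Since no condition was replicated, conditions could not be tested against each other, and every difference below is one between libraries.

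The ligands of this family are made as membrane-anchored precursors and are released from the cell surface by proteases, mainly ADAM17 for amphiregulin, epiregulin, HB-EGF, TGFα and epigen and ADAM10 for betacellulin and EGF. Released ligand binds EGFR, which pairs with itself or with ERBB2 or ERBB3 and signals through the RAS-MAPK and PI3K-AKT relays. ERBB2 has no known ligand of its own, and ERBB3 binds neuregulins but has little kinase activity, so that both act as partners. In the mammary gland, amphiregulin (Areg) is induced by oestrogen in hormone-sensing luminal cells and is required for the ducts to elongate at puberty.

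Expression is given in FPKM, the number of fragments relative to the exon length of a gene and to the total of its library. The exon length takes in all annotated exons of a gene, from 1215 bases for Areg to 11326 for Egfr. Levels can be set side by side between genes, but their order depends on that length, whichever transcripts the cells made. Between 19356122 and 20648784 fragments lay behind each library. Intervals are exact 95% intervals from the recovered fragments and cover counting error only. The names basal and luminal are used as labels, since the libraries went against them. Basal and myoepithelial markers were higher in the luminal-labelled library for 10 of 10 genes with DMSO and for 10 of 10 with baicalin. Their summed FPKM was 1804 and 513 in the basal-labelled libraries (DMSO, then baicalin) and 5379.6 and 7223 in the luminal-labelled ones. Of 12 luminal markers, 10 were lower in the luminal-labelled library with DMSO and 11 with baicalin. The exceptions, which ran with the labels, were the hormone receptor genes Esr1 with DMSO (0.992 against 1.44 FPKM) and Pgr with DMSO (1.08 against 4.81 FPKM) and with baicalin (0.912 against 2.09 FPKM). The luminal sums were 4303 and 2946 FPKM under the basal label and 1237 and 1039 FPKM under the luminal label. Summed fibroblast markers lay between 2.60 and 10.4 FPKM, endothelial markers between 0.874 and 3.31 FPKM and immune markers between 5.41 and 53.6 FPKM. Most of the immune sum came from Cd68 and Lyz2, while Ptprc, which marks all leukocytes, did not exceed 0.0138 FPKM. The part of these differences in the results on the EGF receptor family was not tested.

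All 10 members had an FPKM above 0 in all 4 libraries. Areg was the most abundant member in 3 of the 4 libraries, and in the luminal-labelled DMSO library it came after Erbb3. Egf was the least abundant in every library, at 0.0625, 0.118, 0.128 and 0.0859 FPKM in the order basal-labelled DMSO, basal-labelled baicalin, luminal-labelled DMSO and luminal-labelled baicalin, with between 14 and 28 fragments. The cells therefore held very little RNA for EGF itself, the ligand that the medium supplied, beside 9 members that each reached at least 1.68 FPKM. Members also differed in how far they moved across the libraries. Areg varied 7.39-fold between its lowest and highest library, Hbegf 5.45-fold, Ereg 4.69-fold and Epgn 3.88-fold. Tgfa varied 1.26-fold, Erbb2 1.26-fold and Erbb3 1.60-fold. The spread was thus widest among 4 of the ligands, and 5 of the 7 ligands had their highest level in the basal-labelled baicalin library and their lowest in the luminal-labelled DMSO library.

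**Figure D1:**
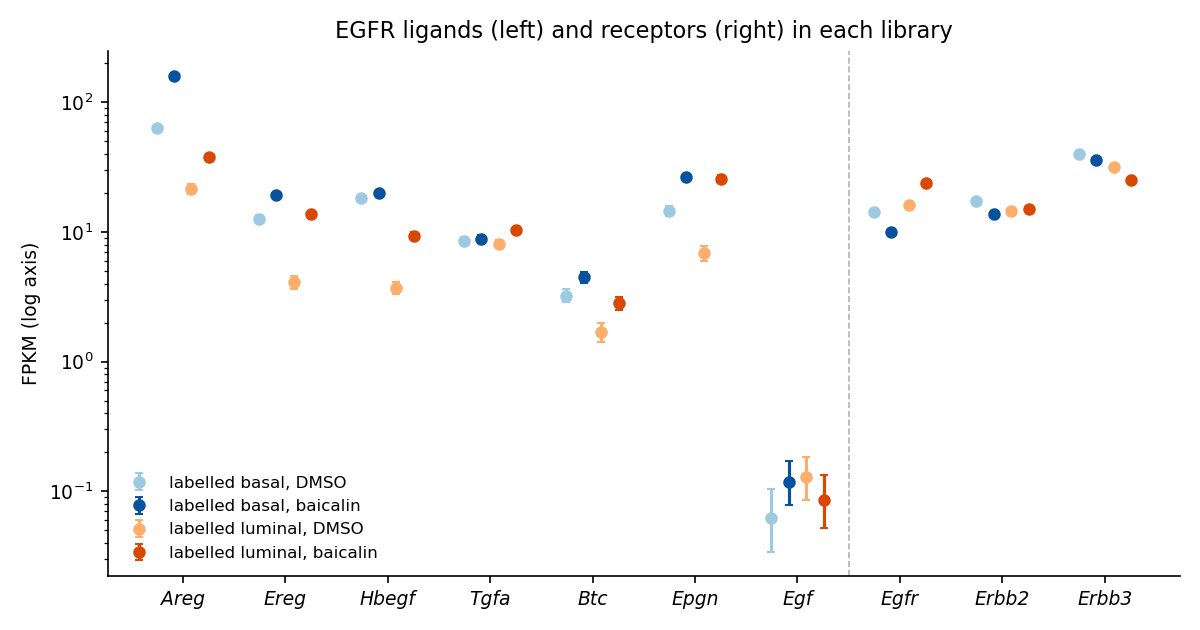
FPKM of each member in the 4 libraries on a log axis, with exact 95% counting intervals as bars and 1 library per point. Areg spans 21.4 to 158 FPKM, Egf stays at or below 0.128 FPKM, and the receptors Erbb2 and Erbb3 vary 1.26-fold and 1.60-fold across libraries.

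Areg (ENSMUSG00000029378, GRCm38 chr5:91139599-91148432, plus strand, 1215 exon bases) encodes amphiregulin. It had 63.2 FPKM (95% interval 60.0 to 66.4) in the basal-labelled DMSO library and 158 FPKM (153 to 163) in the basal-labelled baicalin library. In the luminal-labelled libraries it had 21.4 FPKM (19.6 to 23.4) with DMSO and 37.5 FPKM (35.2 to 40.0) with baicalin. All 4 intervals were apart, and Areg was higher with baicalin under both labels and higher under the basal label with either treatment. The ratio of baicalin to DMSO was 2.51 (2.36 to 2.66) under the basal label and 1.75 (1.57 to 1.96) under the luminal label. On the log2 scale with 1 FPKM added to each value, which is used for changes throughout, these differences were 1.31 and 0.78. In the basal-labelled baicalin library the basal marker sum was 513 FPKM, against 1804 FPKM with DMSO, and the luminal sum 2946 against 4303 FPKM. There 1 of 10 basal and 2 of 12 luminal markers were higher than with DMSO. Krt5 had 3.01 against 128 FPKM and Trp63 0.31 against 6.01 FPKM. Higher luminal markers were Cldn4 (476 against 273 FPKM) and Cldn3 (192 against 144 FPKM). Of 6 immune markers, 1 was higher there. That gene was Cd68, a macrophage marker that other cells also express, with 51.5 against 7.49 FPKM, while Lyz2 was lower, with 2.17 against 8.84 FPKM. Esr1, the oestrogen receptor, had 0.992 FPKM with DMSO and 0.982 FPKM with baicalin there. In bulk RNA, a change in the share of a cell type and a change in RNA per cell cannot be told apart.

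The promoter of Areg is shown because this ligand had the largest difference under the basal label, and the window before Epgn because that ligand had the largest under the luminal label. The sequences are from RefSeq on GRCm38.p6, plus strand, 5′ to 3′, and end at the base before the annotated gene start. They cover chr5:91139349-91139598 for Areg and chr5:91027267-91027463 for Epgn. Capitals mark matches to the motifs searched.
Areg: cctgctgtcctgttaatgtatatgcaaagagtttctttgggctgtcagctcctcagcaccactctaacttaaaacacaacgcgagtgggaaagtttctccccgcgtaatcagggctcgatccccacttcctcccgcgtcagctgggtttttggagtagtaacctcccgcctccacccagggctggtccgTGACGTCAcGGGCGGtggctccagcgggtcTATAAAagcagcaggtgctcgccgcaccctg
Epgn: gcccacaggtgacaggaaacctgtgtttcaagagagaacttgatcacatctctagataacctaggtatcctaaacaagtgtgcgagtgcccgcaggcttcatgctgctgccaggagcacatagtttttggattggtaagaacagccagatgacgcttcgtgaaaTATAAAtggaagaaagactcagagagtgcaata

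Motifs were searched on both strands in the 250 bases before and 50 bases after the RefSeq start, for 8 members, not for Ereg and Hbegf. The cAMP response element TGACGTCA, which CREB and ATF factors bind, was found in Areg at positions -61 to -54 from the start and in no other member searched. It was present in 1.79% of 32851 mouse promoters. The TATA box TATAAA was found in Areg at -31 to -26 and in Epgn at -86 to -81, and in 13.6% of all promoters. Positions are counted from the RefSeq start, which for Epgn lies 53 bases downstream of the GENCODE start. The Epgn sequence above ends before the GENCODE start, so its TATA box lies 53 bases closer to that start than the position given. The GC box GGGCGG was found in Areg, Egfr and Tgfa and in 35.7% of all promoters, and 1 base separates it from the cAMP response element in the Areg sequence above. The AP-1 motif TGANTCA and the antioxidant response element core TGACNNNGC were found in 7.81% and 12.4% of all promoters and in none of the 8 members. None of these matches in the members overlapped another. A match describes letters in a window and does not show that a factor was bound.

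Epgn, Ereg and Btc lie next to Areg on chromosome 5, in a stretch of 376 kb from the first gene start to the last gene end. Epgn (ENSMUSG00000035020, chr5:91027464-91035215, plus strand) encodes epigen, a ligand with low affinity for EGFR. It had 14.5 FPKM (13.3 to 15.8) with DMSO and 26.5 FPKM (24.9 to 28.2) with baicalin under the basal label, a ratio of 1.83 (1.64 to 2.04). The luminal-labelled libraries had 6.83 FPKM (5.99 to 7.76) with DMSO and 25.8 FPKM (24.2 to 27.4) with baicalin, a ratio of 3.77 (3.27 to 4.36). Under the luminal label 5 of 10 basal, 3 of 12 luminal and 4 of 6 immune markers were also higher with baicalin. So were 5 of 6 fibroblast and 5 of 5 endothelial markers. With DMSO first, Krt17 had 358 and 1140 FPKM, Cldn4 45.9 and 136 FPKM and Cd68 4.44 and 13.7 FPKM. Lower with baicalin were Krt19 (105 and 25.0 FPKM), Acta2 (555 and 417 FPKM), Oxtr (19.4 and 3.61 FPKM) and Cnn1 (11.7 and 3.43 FPKM). Of the immune markers that were higher, Ptprc and Adgre1 did not exceed 0.0449 FPKM. The 2 DMSO libraries differed for Epgn, while the intervals of the 2 baicalin libraries overlapped.

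Ereg (ENSMUSG00000029377, chr5:91074622-91093646, plus strand) encodes epiregulin, which also binds ERBB4. It had 12.6 FPKM (11.9 to 13.4) with DMSO and 19.2 FPKM (18.3 to 20.2) with baicalin under the basal label, a ratio of 1.52 (1.41 to 1.65). In the luminal-labelled libraries it went from 4.09 FPKM (3.66 to 4.56) to 13.7 FPKM (12.9 to 14.5), a ratio of 3.34 (2.95 to 3.78). Baicalin libraries were therefore above the DMSO library of their label, and the basal-labelled DMSO library and the luminal-labelled baicalin library overlapped. An antisense gene, Gm19610, shares 141 of the 4128 exon bases of Ereg and had 4.32 to 9.73 FPKM, so the fragments on the shared bases are uncertain where the counting did not use strand.

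Btc (ENSMUSG00000082361, chr5:91357261-91402994, minus strand) encodes betacellulin, which binds EGFR and ERBB4. Its FPKM was 3.22 with DMSO and 4.47 with baicalin under the basal label, and 1.68 and 2.82 under the luminal label, with ratios of 1.39 (1.19 to 1.62) and 1.68 (1.37 to 2.07). Both ratios lay above 1, and neither reached a log2 change of 1. The genes next to these 4 ligands on either side had smaller changes, but genes beyond them did not. Mthfd2l, a mitochondrial folate enzyme whose start lies at -208 kb from that of Areg, had log2 changes of -0.20 and -0.30 under the basal and the luminal label. Parm1, whose start lies at 378 kb, had -0.03 and 0.28. On the far side of Mthfd2l lie chemokine genes that attract neutrophils, of which Cxcl1 had -0.55 and 1.07, Cxcl2 -1.11 and 1.51, Cxcl3 -1.26 and 0.28, and Cxcl5 -0.77 and 1.49. Cxcl1, Cxcl2, Cxcl3 and Cxcl5, described after their values were seen, were lower with baicalin under the basal label, where the 4 ligands were higher. They were higher under the luminal label, as the ligands were. Cxcl3 did not exceed 1.90 FPKM, and counting intervals were not computed for these genes. Ppbp, Pf4 and Cxcl15, in the same stretch, did not exceed 0.437 FPKM. Of these, Cxcl15 was lower under both labels, with -0.07 and -0.40. Gm19619, a noncoding gene between Areg and Btc, stayed at or below 0.631 FPKM.

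**Figure D2:**
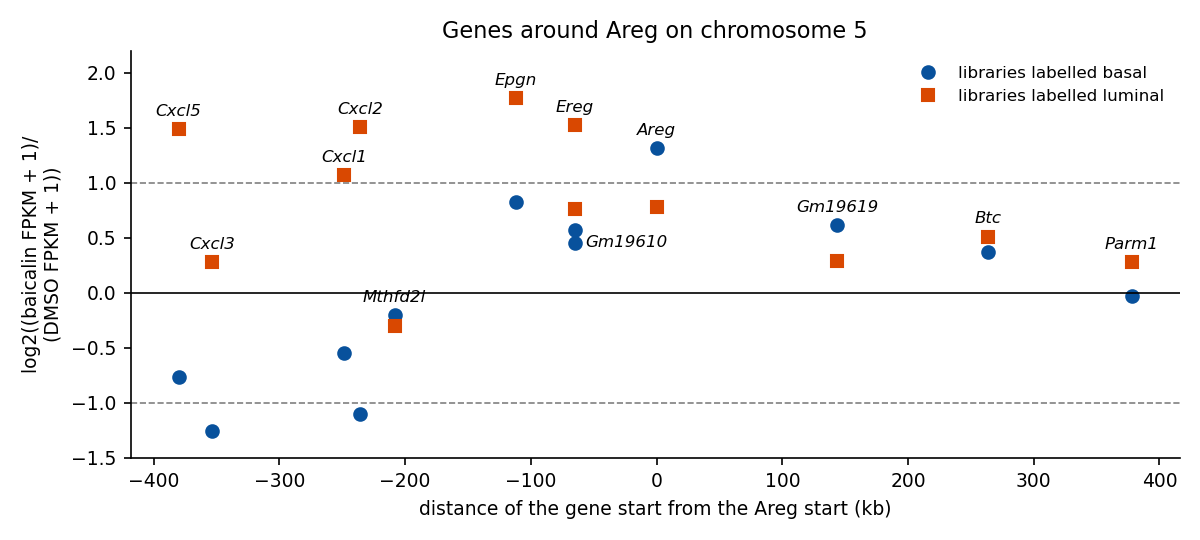
Log2 change with baicalin (1 FPKM added) against the distance of each gene start from the Areg start in kb, for genes above 0 FPKM in all 4 libraries. Epgn, Ereg, Areg and Btc lie above 0 under both labels and Mthfd2l below 0, while Cxcl1, Cxcl2 and Cxcl5 lie below 0 under the basal label and above 1 under the luminal label.

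The 3 ligands encoded elsewhere differed from each other. Hbegf (ENSMUSG00000024486) encodes HB-EGF, which binds heparan sulphate and both EGFR and ERBB4. It had 18.3 FPKM (17.5 to 19.2) with DMSO and 20.2 FPKM (19.3 to 21.1) with baicalin under the basal label, a ratio of 1.10 (1.03 to 1.17). Under the luminal label it had 3.70 FPKM (3.32 to 4.11) with DMSO and 9.31 FPKM (8.72 to 9.93) with baicalin, a ratio of 2.51 (2.22 to 2.86). The basal-labelled libraries were close together and well above the luminal-labelled ones, of which the baicalin library was the higher. The fragments recovered for Hbegf were up to 0.303 from a whole number, so its counts are approximate.

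Tgfa (ENSMUSG00000029999, chr6:86195223-86275719, plus strand) encodes TGFα. Its FPKM was 8.59 and 8.90 under the basal label and 8.14 and 10.3 under the luminal label, with DMSO given first. The ratio of 1.04 (0.953 to 1.13) under the basal label did not exceed counting error, and the ratio under the luminal label was 1.26 (1.16 to 1.37). Egf (ENSMUSG00000028017, chr3:129677565-129755316, minus strand) gave ratios of 1.89 (0.956 to 3.89) and 0.670 (0.358 to 1.23), and at this depth no difference was detectable under either label. Egf shares exon bases with 2 antisense genes, both listed at 0.

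The summed FPKM of the 7 ligands was 121 with DMSO and 238 with baicalin under the basal label, 1.97 times as much. Under the luminal label it was 46.0 and 99.4, 2.16 times as much. The make-up of the sum differed between the labels. Areg took 52.4% of it with DMSO and 66.6% with baicalin under the basal label, but 46.6% and 37.8% under the luminal label. Without Areg, the sum with baicalin was 1.38 times that with DMSO under the basal label and 2.52 times under the luminal label. Epgn took 14.9% of the luminal-labelled sum with DMSO and 25.9% with baicalin, and Tgfa took 17.7% and 10.3%.

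**Figure D3:**
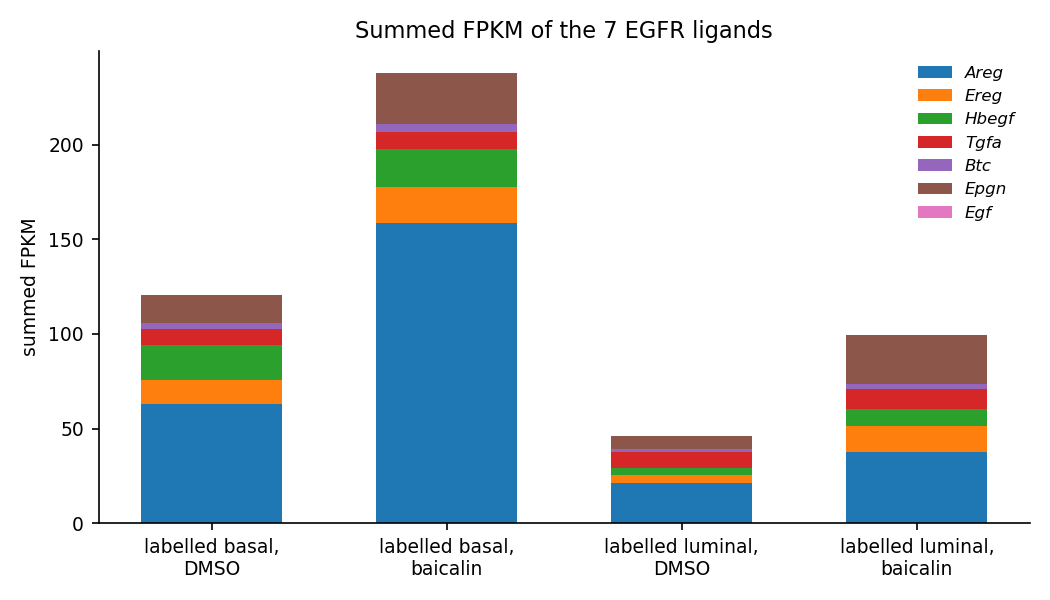
Summed FPKM of the 7 ligands in each library, stacked by gene, with 1 library per bar. The sums are 121, 238, 46.0 and 99.4 FPKM from left to right, and Areg is the largest part of each bar.

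All 3 receptors were lower with baicalin under the basal label, and under the luminal label Egfr was higher and Erbb3 lower. Egfr (ENSMUSG00000020122, chr11:16752203-16918158, plus strand), the receptor for all 7 ligands, had 14.4 FPKM (13.9 to 14.9) with DMSO and 10.1 FPKM (9.67 to 10.5) with baicalin under the basal label. Under the luminal label it had 16.3 FPKM (15.8 to 16.8) with DMSO and 23.7 FPKM (23.1 to 24.4) with baicalin. The 4 intervals were apart, with the 2 baicalin libraries at either end. The ratios of baicalin to DMSO were 0.701 (0.664 to 0.739) and 1.46 (1.40 to 1.52). The opposite signs were not tested against each other.

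Erbb3 (ENSMUSG00000018166, chr10:128567523-128589652, minus strand) was the most abundant receptor in every library. It had 40.3 FPKM with DMSO and 35.8 FPKM with baicalin under the basal label, and 31.8 and 25.2 FPKM under the luminal label. Both ratios lay below 1, at 0.890 (0.854 to 0.927) and 0.792 (0.755 to 0.830). Erbb2 (ENSMUSG00000062312, chr11:98412470-98437716, plus strand) had 17.4 and 13.8 FPKM under the basal label, a ratio of 0.792 (0.739 to 0.849). Under the luminal label it had 14.5 and 14.9 FPKM, a ratio of 1.03 (0.957 to 1.10) that did not exceed counting error. Egfr made up 20.0% of the summed receptor FPKM with DMSO and 16.9% with baicalin under the basal label, and 26.0% and 37.1% under the luminal label. In the luminal-labelled baicalin library, the intervals of Epgn and Erbb3 and those of Erbb3 and Egfr overlapped, so these neighbours in the order of levels were not separated by counting error.

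**Figure D4:**
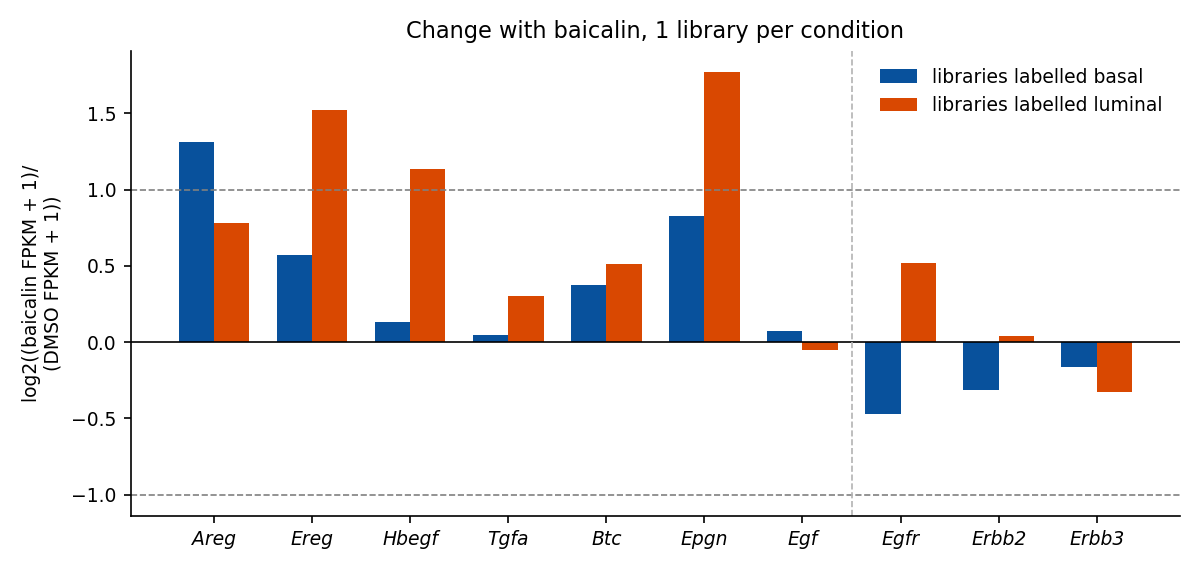
Log2 change with baicalin (1 FPKM added) for the 7 ligands, left of the vertical line, and the 3 receptors, right of it, with dashed lines at 1 and -1. Areg passes 1 under the basal label, Ereg, Hbegf and Epgn pass it under the luminal label, and Egfr lies below 0 under the basal and above 0 under the luminal label.

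Counted over the family, 1 of 10 members (Areg) passed a log2 change of 1 with baicalin under the basal label, against 2.15% of the 17787 genes above 0 FPKM in all 4 libraries. No member was lower by more than 1, against 3.33% of genes. Under the luminal label 3 of 10 (Ereg, Hbegf and Epgn) were higher by more than 1, against 2.37% of genes, and none was lower by more than 1, against 1.59%. The ratio's counting interval excluded 1 for 8 of 10 members under the basal label, against 54.4% of genes, and for 8 of 10 under the luminal label, against 51.6%. Here and below, the genes behind such shares were not matched for fragments, on which the width of an interval depends. All 7 ligands were higher with baicalin under the basal label and 6 of 7 under the luminal label, by sign alone, beside 9057 and 8115 of the 17787 genes. The median log2 change of the ligands was 0.37 and 0.78, beside 0.01 and -0.02 over all genes tested. For the receptors it was -0.32 and 0.04.

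The difference between the labels ran through the ligands too. With DMSO, 6 of 7 ligands were lower in the luminal-labelled library by sign, Tgfa among them within counting error. Areg was 2.95-fold lower there, Ereg 3.08-fold and Hbegf 4.96-fold, and these 3 passed a log2 difference of 1, against 3.86% of genes in that direction. No member was higher by more than 1, against 4.71% of genes, and 9 of 10 intervals excluded 1, against 60.6% of genes. With baicalin, Areg was 4.22-fold lower in the luminal-labelled library and Hbegf 2.17-fold lower, both past a log2 difference of 1, against 2.99% of genes. Egfr was 2.35-fold higher there, with a log2 difference of 1.16, against 5.24% of genes higher by more than 1. The intervals of 8 of 10 members excluded 1, against 59.4% of genes. Ereg was 1.41-fold lower and Epgn 1.03-fold lower with baicalin, so the gap between labels was narrower for these ligands than with DMSO, when they were 3.08-fold and 2.12-fold lower. These comparisons share libraries with those of baicalin and are not independent of them.

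ERBB4 and the neuregulins complete the family. Erbb4 had 0.0693 and 0.0319 FPKM under the basal label and 0.0627 and 0.0078 FPKM under the luminal label (DMSO, then baicalin), from 2 to 17 fragments. Nrg1, which encodes a ligand of ERBB3 and ERBB4, was the only neuregulin above 2 FPKM. It had 0.813 and 1.89 FPKM under the basal label and 5.16 and 9.16 FPKM under the luminal label, with ratios of 2.32 (1.93 to 2.80) and 1.77 (1.64 to 1.91). Unlike the EGFR ligands with large differences, Nrg1 was higher in the luminal-labelled libraries. Nrg2 did not exceed 1.78 FPKM, Nrg4 had 1 to 3 fragments, and Nrg3 was listed at 0.

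A further 81 genes of the pathway were read in 6 lists, and 79 of them were above 0 FPKM in all 4 libraries. The exceptions were Nrg3 and Hgs, whose locus is annotated under overlapping gene identifiers. With baicalin, 2 of the 79 passed a log2 change of 1 and 1 passed -1 under the basal label, and 5 and 0 did so under the luminal label. The medians were -0.01 and 0.01, beside 0.01 and -0.02 over all genes. The shares of all genes past these thresholds were 2.15% and 3.33% under the basal label and 2.37% and 1.59% under the luminal label. The counting interval of the ratio excluded 1 for 57 and 62 of the 79, beside 54.4% and 51.6% of genes. Between the labels, 4 of the 79 were past 1 and 8 past -1 with DMSO, against 4.71% and 3.86% of genes, and 4 and 6 with baicalin, against 5.24% and 2.99%. With baicalin against DMSO, the adaptor, RAS-MAPK and PI3K-AKT lists held no gene past 1 or -1 apart from Pik3r3. The 17 adaptor and RAS-MAPK genes had medians of -0.08 and -0.03 and no member past 1. Among 13 PI3K-AKT genes, Pik3r3, a regulatory subunit of PI3K, had 11.5 and 3.92 FPKM under the basal label, a log2 change of -1.34, and 8.18 and 9.38 FPKM under the luminal label.

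The 13 genes of ligand shedding had a median change of -0.04 under the basal label, where 4 of 13 were higher, and 0.29 under the luminal label, where 11 of 13 were higher, beside 9057 and 8115 of the 17787 genes. Adam8, a membrane protease, had 3.97 FPKM with DMSO and 22.8 FPKM with baicalin under the luminal label, a ratio of 5.74 (5.13 to 6.44), and 9.42 and 8.31 FPKM under the basal label. Adam12 had 4.32 and 21.2 FPKM under the luminal label, a ratio of 4.89 (4.55 to 5.26), and 21.9 and 14.7 FPKM under the basal label. Timp3, an inhibitor of ADAM17, had 134 and 288 FPKM under the luminal label, a ratio of 2.14, and 231 and 296 FPKM under the basal label. The main ligand sheddases were steadier. Adam17 had 23.8 and 22.5 FPKM under the basal label and 17.7 and 19.8 FPKM under the luminal label, and Adam10 had 57.1 and 52.4 FPKM and 55.2 and 66.7 FPKM. Rhbdf2, which encodes iRhom2, a partner that ADAM17 needs to mature, was higher with baicalin under both labels, with ratios of 1.38 (1.30 to 1.46) and 1.65 (1.54 to 1.77).

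Genes that restrain the receptor and genes that respond to it moved both ways. Errfi1, an inhibitor of the EGFR kinase, had ratios of 0.779 (0.741 to 0.820) under the basal label and 0.662 (0.623 to 0.704) under the luminal label. Lrig1, which promotes receptor turnover, had 0.775 (0.745 to 0.807) and 0.568 (0.536 to 0.602). Both inhibitors were lower with baicalin under both labels, while Cblb, a ubiquitin ligase, had 0.916 and 2.06. Of the 16 receptor inhibitor and turnover genes tested, 8 were higher and 8 lower under the basal label. Under the luminal label 7 were higher and 9 lower. The median log2 changes were -0.001 and -0.10, beside 0.01 and -0.02 over all genes. Among 16 feedback and early target genes, Myc had ratios of 2.16 (2.05 to 2.28) and 2.79 (2.57 to 3.03), and Fosl1, an AP-1 subunit, had 1.81 (1.61 to 2.02) and 4.30 (3.40 to 5.49). Spry1, a feedback inhibitor of RAS-MAPK signalling, had 2.52 (2.27 to 2.80) under the basal label and 0.914 (0.808 to 1.03) under the luminal label. Some other targets of the same relay were lower under both labels, with ratios for Etv5 of 0.723 and 0.604, for Spred1 of 0.766 and 0.625 and for Dusp6 of 0.572 and 0.928. Fos, an early target, had log2 changes of 0.56 and -0.98. Of the 16 feedback and early target genes, 9 were higher and 7 lower under each label. Their median log2 changes were 0.10 and 0.13, beside 0.01 and -0.02 over all genes. The list thus held members that went up with Areg and members that went down. Adam17, Adam10, Rhbdf2, Errfi1, Lrig1, Cblb, Etv5, Spred1, Dusp6, Fos and, as a pathway gene, Dusp4 were singled out after their values were seen.

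**Figure D5:**
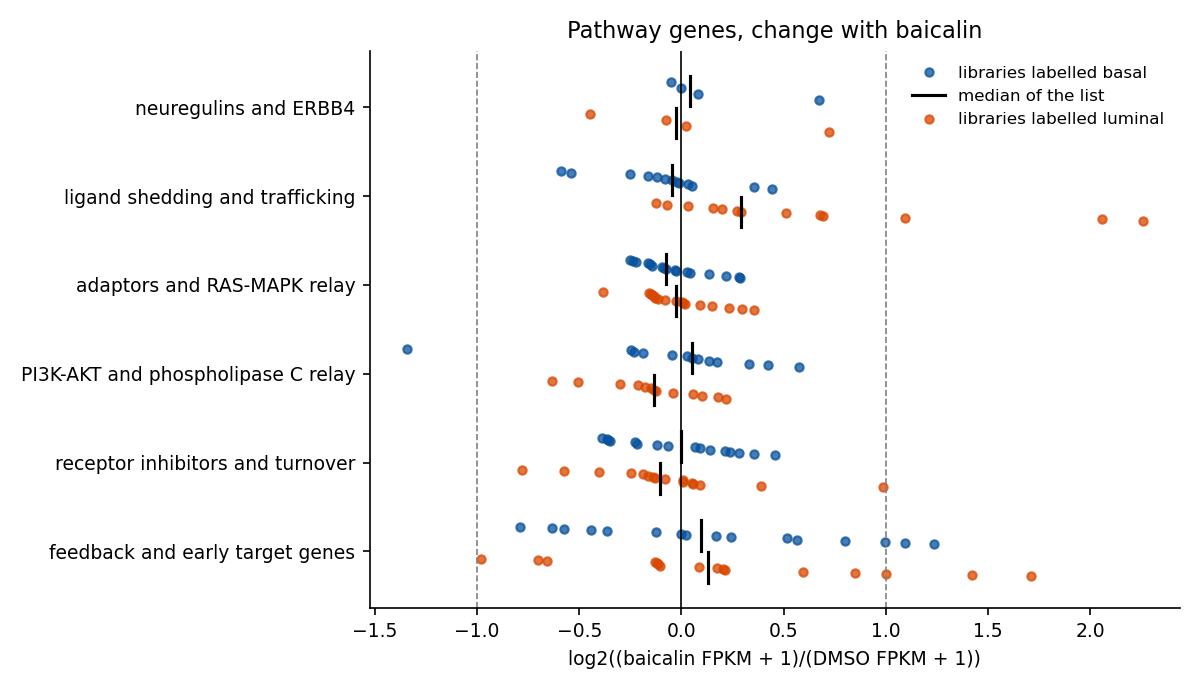
Log2 change with baicalin (1 FPKM added) for each of 79 pathway genes in 6 lists, with a black bar at the median of each list and dashed lines at 1 and -1. Most genes lie between -1 and 1, and Adam8 and Adam12 lie above 2 under the luminal label.

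Across the 4 libraries, the genes whose levels ran most like those of a member were found by the distance between log2(FPKM + 1) values, each centred on its own mean, among 9154 genes with at least 5 FPKM in a library. For Areg these were Tnfrsf1b (distance 0.21), the pseudogene Olfr1372-ps1 (0.23) and Dusp4 (0.35). Tnfrsf1b had 3.34 and 8.11 FPKM under the basal label and 0.45 and 1.67 FPKM under the luminal label (DMSO, then baicalin). Olfr1372-ps1 had 2.70 and 6.77 FPKM, then 0.30 and 1.32 FPKM. At such low levels the 1 FPKM added makes differences smaller, so their ratios need not be like those of Areg. Dusp4, a MAP kinase phosphatase induced by RAS-MAPK signalling, had 53.1, 107, 17.4 and 35.7 FPKM in the order used above, with ratios of 2.01 (1.92 to 2.10) and 2.06 (1.90 to 2.23) for baicalin to DMSO. For Hbegf they were Ttc9 (0.20), Abcg1 (0.25) and 1700072G22Rik (0.26), and for Egfr they were Jup (0.10), Txndc17 (0.10) and Arhgef19 (0.17). With 4 libraries, such likeness is a description of these values.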

How the data were processed

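RNA was sequenced by the authors from 4 cultures, 1 library each. The deposited values are FPKM. According to the study's methods, the authors aligned reads with HISAT2 to GRCm38 (Ensembl release 94) and computed FPKM with featureCounts. The submitters' processing notes also name Bowtie 0.12.2 and the build mm8, and the strand setting is not given in the sources used here. Exon lengths and positions came from GENCODE mouse release 21 (GRCm38), which gave a length for 54409 genes. Since FPKM times length is a whole multiple of what 1 fragment is worth, the fragments per library could be recovered. Of genes under 50 fragments, 98.7% to 98.9% came out within 0.1 of a whole number.

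Changes were log2((second FPKM + 1)/(first FPKM + 1)) on genes above 0 FPKM in all libraries, with a threshold of 1. The study's t-test could not be run on 1 library per condition. Ratios of FPKM have exact Clopper-Pearson intervals and levels exact Poisson intervals, at 95%. Without molecular identifiers these cover counting error only. All 10 members are described. Of each pathway list, genes past the threshold with baicalin against DMSO and with at least 5 FPKM were named, at most 3 per list and label, with Erbb4 and the neuregulins in any case, and others where stated. The members and lists were chosen with earlier results of these data known. No stretch of at least 200 bases at 95% identity was shared by a member with another gene, apart from Egf and its 2 antisense genes (BLAST 2.17.0). The computation was tested on simulated data. Alternatives changed the pseudocount to 0.1 or to none, the filter in 3 ways, the unit to TPM, the centre to the median of all genes and the threshold to 2. Statistics were computed in Python 3.11.15 with scipy 1.17.1, pandas 2.3.3 and numpy 2.4.6, and plots were drawn with matplotlib 3.10.9.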

Additional observations from a re-analysis of the deposited data

Results flagged for a closer look

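Members and named pathway genes with at least 5 FPKM in a library were compared for opposite signs of the log2 change with baicalin under the 2 labels, and these differences were not tested. Egfr had -0.47 under the basal label and 0.52 under the luminal label, and neither counting interval held 1. Erbb2 had -0.32 and 0.037, of which the second was within counting error, and Egf had 0.074 and -0.055, both within it. Of the pathway genes, Adam8 had -0.16 and 2.26, Adam12 had -0.54 and 2.06, and Pik3r3 had -1.34 and 0.18. Spry1 had 1.24 and -0.12, the second within counting error. Among the genes singled out after their values were seen, Cblb had -0.12 and 0.99, Adam10 had -0.12 and 0.27, and Adam17 had -0.079 and 0.15, and none of these counting intervals held 1. Fos had 0.56 and -0.98, and its counting intervals are not given here.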

How the results depend on the processing

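Each member's log2 change was recomputed over the 4 comparisons with a pseudocount of 0.1, with none, with TPM and after centring on the median. A pseudocount cannot change a sign, so only the last 2 settings could. The sign was kept in 40 of 40 values with TPM and in 40 of 40 after centring. In 14 of all 160 recomputed values the size moved by more than the counting error. The count of members past 1 with baicalin was unchanged by the 2 pseudocounts, TPM and centring, at 1 and 3 of 10. The 3 filters leave the change of each gene as it is, so the same count under them tests little. The share of all genes past 1 or -1 did move. Under the basal label it was 5.48% as used above, 13.6% with a pseudocount of 0.1, 21.1% with none and 9.55% with TPM. Under the luminal label it was 3.95%, 11.0%, 17.4% and 7.29%. With a threshold of 2 the count of members was 0 under both labels, beside 0.973% and 0.596% of genes. Between the labels it was 1 in each comparison, beside 1.88% of genes with DMSO and 1.69% with baicalin. Without a pseudocount, 5 members in place of 3 differed by more than 1 between the labels with DMSO, beside 27.0% of genes in place of 8.56%. With a pseudocount of 0.1 and with TPM, 4 did, beside 19.6% and 14.5% of genes. Of the 79 pathway genes, 5 passed under the basal label with a pseudocount of 0.1 and 6 with none, in place of 3. The shares of all genes there were 13.6% and 21.1%. Under the luminal label 9 and 11 passed, in place of 5, beside 11.0% and 17.4% of genes. With TPM and after centring 7 passed there, beside 7.29% and 4.05% of genes. Between the labels 14 passed with TPM in place of 12 with DMSO, and 15 in place of 10 with baicalin. The shares of all genes were 14.5% and 14.2%. With a threshold of 2 the pathway counts were 0 under the basal and 2 under the luminal label. Between the labels they were 3 in place of 12 with DMSO and 0 in place of 10 with baicalin. The shares of all genes past 2 are those given above. With 1 library per condition no sample could be left out. Depth limits Egf, Erbb4 and Nrg4, with at most 28 fragments.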
